A study of Mus musculus with 6 samples.

Results

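Arc, Fos, Fosb, Junb, Egr1, Egr2, Egr3, Egr4, Npas4 and Nr4a1 are 10 immediate early genes of neuronal activity. They were taken by name from a table of 21958 protein-coding genes, and all 10 were found in it. They were followed in 6 RNA sequencing libraries of synaptoneurosomes, a filtered brain homogenate enriched in pinched-off synapses, made from the hippocampus and neighbouring cortex of FVB mice aged 6 to 8 weeks. The first group, unstimulated total RNA (n = 3), held total RNA of synaptoneurosomes that were set aside without a stimulus. By the paper's methods, unstimulated control samples were kept on ice with cycloheximide, an inhibitor of protein synthesis. The second group, NMDA polyribosomes (n = 3), held RNA from polyribosomal fractions of a sucrose gradient, prepared after the NMDA receptors had been activated with 50 µM NMDA and 10 µM glutamate for 30 s and then blocked with 120 µM of the antagonist APV for 20 min. Polyribosomes are strings of ribosomes on one mRNA, so the design asks which mRNAs of the synaptic fraction were engaged in translation after NMDA-R stimulation. The groups differed in stimulation, in incubation (warm, or on ice with cycloheximide) and in RNA fraction, and these cannot be told apart here. Tissue of several mice was pooled and divided into aliquots. The labels do not say that the 3 replicate numbers came from separate mice, so p-values measure the spread between these libraries.

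Immediate early genes are transcribed within minutes of synaptic activity, without prior protein synthesis, when calcium entering through NMDA receptors and calcium channels activates kinases that act on the transcription factors CREB, SRF and MEF2. Fos, Fosb and Junb encode subunits of the AP-1 transcription factor, Egr1 to Egr4 encode zinc-finger transcription factors, Npas4 encodes a neuronal basic helix-loop-helix factor and Nr4a1 an orphan nuclear receptor. Arc is the exception, an effector protein of the postsynaptic density that promotes the removal of AMPA receptors, and its mRNA is carried into dendrites and translated near active synapses. Many of these mRNAs are short-lived and carry AU-rich stretches in the 3′ untranslated region, whose core is the pentamer AUUUA.

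At the median the mRNAs of the group had fewer exons and a higher GC content than those of all genes tested. In the gene models used here (GENCODE vM21 on GRCm38, the coding transcript whose ends lay nearest the deposited gene bounds), the members had a median of 3 exons beside 9 over 12212 genes tested, a median GC content of 57.4% beside 50.5%, and a median transcript length of 2721 bases beside 3220.5. Lengths were mixed, since Egr1 (4484 bases), Fosb (3654) and Npas4 (3622) were longer than the median of all genes. Egr3 entered the members' median with 1509 bases, the model that fits its deposited bounds. Junb, with 1 exon, is an intronless gene, and Npas4 had the most exons of the members, 8. The pentamer occurred 4 times in the 3′ untranslated region of Fos, 3 times in Egr2 and Nr4a1, 2 times in Junb and Egr1, and once in Fosb and Npas4. It was absent from those of Arc, Egr3 and Egr4. At least one pentamer was found in 68.7% of the genes tested, so 7 of 10 members is close to that share. The model of Egr3 that fits the deposited bounds carries only 50 bases of 3′ untranslated region, so its count of 0 covers little sequence. The windows with most pentamers are printed for 4 transcription factor members, to show the element that these mRNAs carry and those of Arc and Egr4 do not (29 bases each, 5′ to 3′ on the transcript, written as DNA, with ATTTA in capitals).
Fos, chr12:85477101-85477129, plus strand, 3′ untranslated region: tgtgttttcaATTTATTTAttaagatgga
Nr4a1, chr15:101274702-101274730, plus strand, 3′ untranslated region: ATTTAtatttgtgtattttcctggATTTA
Egr2, chr10:67541645-67541673, plus strand, 3′ untranslated region: cagtgtatatccATTTAgattttgtgtat
Junb, chr8:84977127-84977155, minus strand, 3′ untranslated region: atatatttgtgtATTTAacagggagggga
The Fos window holds overlapping pentamers and the Nr4a1 window has one at each end. Among the 7 members found in the RefSeq promoter table for the 250 bases before the start site (Arc, Egr1 and Egr3 were not matched), the CArG box, the binding motif of SRF, was found in 1, Egr2, and in 1.62% of 27025 genes. The full cAMP response element TGACGTCA, the motif of CREB, which reads the same on both strands, was found in 0 of the 7 and in 1.77% of all genes. More start sites were searched for Egr2 than for any other of these members, and motifs further upstream than 250 bases were not looked for. The motif matches describe these windows and carry no information on binding.

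All 10 members were detected in every library. Library totals ran from 1044955 counts (unstimulated total RNA replicate 3) to 7361580 (NMDA polyribosomes replicate 1), with all 3 polyribosome libraries deeper than all 3 total RNA libraries. The members took 0.0401% to 0.0696% of the counts on polyribosomes and 0.0401% to 0.0567% in total RNA. Arc alone made up 64.3% to 76.8% of the members' counts. Its lowest count was 312, whereas Fosb and Egr2 had 3 counts each in the shallowest library, and 5 members (Arc, Junb, Egr1, Egr3 and Nr4a1) had at least 10 counts in every library. Values for Fos, Fosb, Egr2, Egr4 and Npas4 in total RNA therefore rest on few reads.

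Compared per kilobase of exon, as CPM (counts scaled to the size of the library) divided by exon length, Arc was the most abundant member in both groups. Its level in total RNA was 102 ± 22.3 CPM per kilobase (SD, n = 3), and no library of another member came near it. Egr3 followed with 13.2 ± 4.18, then Egr1 with 10.5 ± 2.97, Nr4a1 with 8.74 ± 2.36 and Junb with 6.43 ± 1.20 CPM per kilobase in total RNA. The ranges of Egr3, Egr1 and Nr4a1 overlapped, so their order is not resolved. Junb was the lowest of these in every total RNA library, though its range overlapped that of Nr4a1. Fos (3.72 ± 0.674) lay below Junb and above Egr4 (2.98 ± 0.161) with no overlap of neighbouring ranges. The gap between Fos and Egr4 was narrow, with the lowest Fos library at 3.18 and the highest Egr4 library at 3.13. Both values rest on 7 counts, so this order is not secure. Npas4 (2.63 ± 0.860) overlapped Egr4, and Egr2 (1.02 ± 0.263) and Fosb (0.967 ± 0.323) overlapped each other at the bottom. On polyribosomes the order per kilobase was Arc (124 ± 45.2), Egr3 (19.1 ± 3.75), Egr1 (10.4 ± 2.27), Junb (9.64 ± 2.52), Nr4a1 (8.23 ± 2.26), Egr4 (5.45 ± 1.36), Fos (3.63 ± 1.21), Npas4 (2.16 ± 1.02), Egr2 (0.876 ± 0.346) and Fosb (0.847 ± 0.311). There Arc and Egr3 stood clear of the next member and every later neighbour overlapped. The length of Egr3 used here is 1469 bases, the exons inside its deposited bounds. The full vM21 model has 4104, which would place Egr3 below Egr1, Nr4a1 and Junb per kilobase in both groups. Its second place therefore rests on the shorter length, that of the bounds in which reads were counted.

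**Figure D1:**
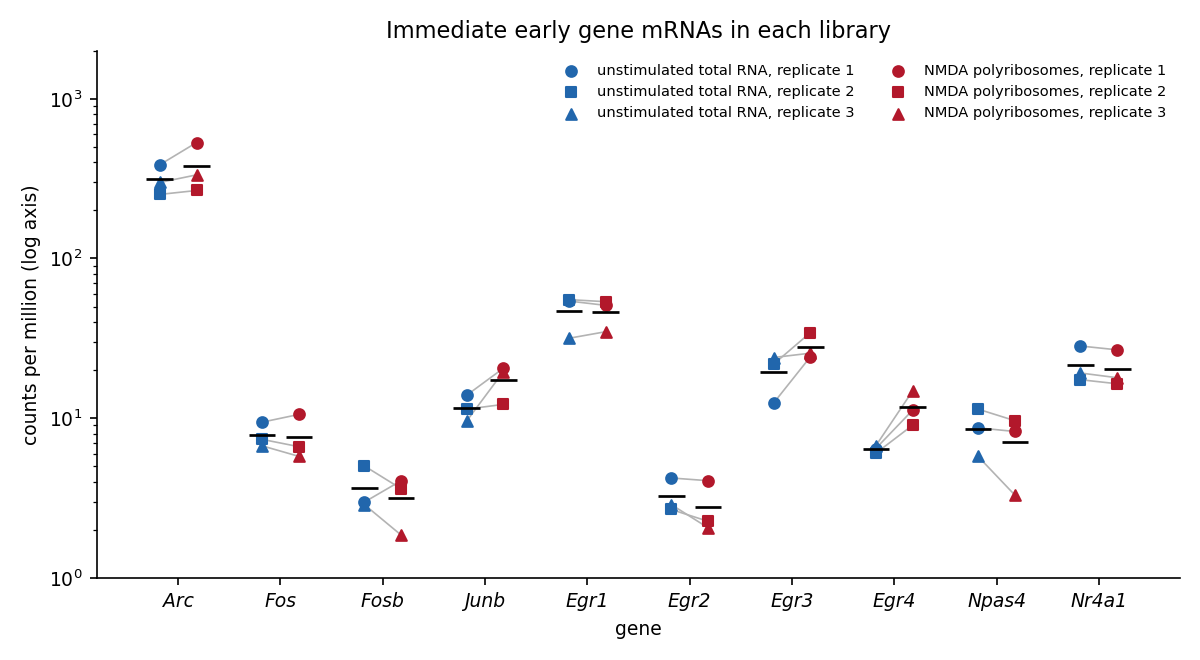
CPM (TMM-scaled counts, log axis) of the 10 immediate early genes in each library, with unstimulated total RNA in blue and NMDA polyribosomes in red, symbols for replicate numbers, grey lines joining libraries of the same number and black bars for group means (n = 3). The groups overlap for every gene except Egr3 and Egr4, whose polyribosome libraries all lie above the total RNA libraries.

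No member passed the test between the groups when replicate numbers were not used as a block. With edgeR's quasi-likelihood test and a threshold of 0.01 on the Benjamini-Hochberg adjusted p, 0 of 10 members were called, beside 376 of 12255 genes (3.07%), 0.71% higher and 2.36% lower on polyribosomes. At an unadjusted p under 0.05 the test gave 2 members, Egr3 and Egr4, beside 3980 of all genes, and DESeq2 called 0 of the 8 members for which it gave an adjusted p, beside 7.14% of the 9712 genes with one. The median log2 fold change of the members (polyribosomes over total RNA) was -0.07, beside 0.00 over all genes tested, and 4 members were above 0 and 6 below. These ratios set the polyribosomal fraction against total RNA and do not measure how much of an mRNA the synapses held. The paper describes synaptoneurosomes as depleted of nuclei and cell bodies, with translation drawing on mRNAs moved to synapses beforehand. With the replicate number as a block, 2 of 10 members were called higher, Egr3 and Egr4, beside 11.8% of all genes called higher and 13.2% called lower in that fit, and no member was called lower.

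Egr4, a zinc-finger factor of the EGR family, had the largest fold change. It lies at chr6:85511121-85513589. Egr4 had 11.2, 9.04 and 14.8 CPM in polyribosome replicates 1 to 3 and 6.46, 6.03 and 6.71 CPM in total RNA. Every polyribosome library was above every total RNA library, and the total RNA values were close to each other. The means were 11.7 ± 2.92 and 6.40 ± 0.346 CPM (SD, n = 3). The log2 fold change was 0.86 (SE 0.27, 95% interval 0.30 to 1.43, adjusted p = 0.0415, edgeR), which missed the threshold. With the replicate block it was 0.79 with an adjusted p of 0.00586. The pairs of equal replicate number gave log2 ratios of 0.76, 0.55 and 1.09. Those ratios rest on total RNA counts of 26, 18 and 7.

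Egr3, another EGR family factor, at chr14:70077445-70080157, was the other member without overlap between the groups. It had 24.2, 34.3 and 25.5 CPM on polyribosomes and 12.4, 21.8 and 24.0 CPM in total RNA. The gap between the groups was narrow, since the lowest polyribosome library stood at 24.2 and the highest total RNA library at 24.0. The log2 fold change was 0.62 (SE 0.25, 95% interval 0.09 to 1.14, adjusted p = 0.0972, edgeR) and with the replicate block 0.65 (adjusted p = 0.00128). Its pairs gave 0.94, 0.65 and 0.09 on the log2 scale, so the third pair hardly differed. Groups that do not overlap in this direction were found for 17.4% of all genes tested, beside 2 of 10 members.

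The blocked calls of Egr3 and Egr4 changed with an offset for GC content and length and when single pairs were left out. In the gene models nearest the deposited bounds, Egr4, Junb and Egr3 had the highest GC contents of the members, 68.2%, 62.6% and 62.2%. The value of Egr3 is that of a transcript of 1509 bases with 50 bases of 3′ untranslated region. These genes also had the 3 highest fold changes, and a link between the 2 orders was not tested. With an offset for GC content and exon length in the blocked fit, Egr4 had a log2 fold change of 0.05 (95% interval -0.43 to 0.54) and Egr3 of 0.08 (-0.24 to 0.41), and neither was called. Taken over the full vM21 gene models instead of the deposited bounds, the same offset left Egr3 at 0.67 (adjusted p = 0.000847) and Egr4 at 0.06, so the value of Egr3 turned on which gene model was used. Without replicate number 1 or 2 the blocked fit called 0 members higher, beside 5.15% and 4.19% of all genes. Without number 3 it called Egr3 alone (11.7% of all genes), and DESeq2 with the block called 0 (6.91%). The part of base composition in the counts was not tested beyond this offset.

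**Figure D2:**
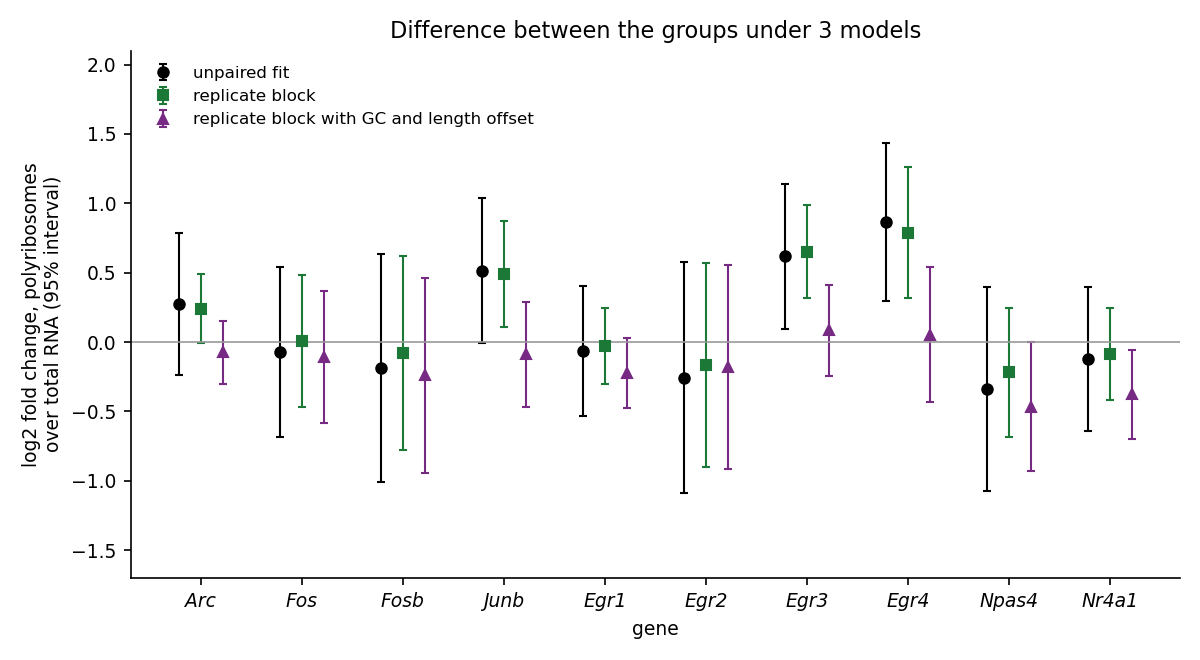
Log2 fold change (polyribosomes over total RNA) of each member with its 95% interval in 3 edgeR fits, without a block (black circles), with the replicate block (green squares) and with the block plus an offset for GC content and exon length (purple triangles). Egr3 and Egr4 lie above 0 without the offset, at 0.62 and 0.86 in the unblocked fit, and at 0.08 and 0.05 with it.

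The AP-1 members showed no common direction. Junb, at chr8:84976909-84978748, had 20.6, 12.2 and 19.6 CPM on polyribosomes and 13.9, 11.4 and 9.59 CPM in total RNA. Polyribosome replicate 2 lay within the total RNA range, and the others lay above it. Its log2 fold change was 0.52 (SE 0.25, 95% interval -0.01 to 1.04, adjusted p = 0.162, edgeR), and -0.09 with the block and the GC and length offset. Part of the Prdx2 gene lies opposite Junb, though no exons overlap. Fos, at chr12:85473890-85477273, had 10.6, 6.63 and 5.76 CPM on polyribosomes and 9.44, 7.37 and 6.71 CPM in total RNA, with overlapping groups and a log2 fold change of -0.07 (95% interval -0.69 to 0.54). Fosb, at chr7:19302721-19310045, was among the least abundant, with 4.06, 3.62 and 1.85 CPM on polyribosomes and 2.98, 5.02 and 2.88 CPM in total RNA. Its log2 fold change of -0.18 had an interval from -1.01 to 0.64.

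Of the other EGR members, Egr1, a factor long used as a marker of neuronal activity and a gene of chromosome 18, had 50.9, 53.6 and 34.8 CPM on polyribosomes and 54.1, 55.3 and 31.6 CPM in total RNA. The groups covered nearly the same range, and replicate 3 was the lowest in both. The log2 fold change was -0.07 (SE 0.22, 95% interval -0.53 to 0.40). Egr2, at chr10:67535475-67542188, also known for its part in myelination, had 4.06, 2.26 and 2.06 CPM on polyribosomes and 4.22, 2.68 and 2.88 CPM in total RNA, with a log2 fold change of -0.26 (-1.09 to 0.58). Whether Egr3 and Egr4 differed from Egr1 and Egr2 in their change was not tested.

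Npas4, at chr19:4984355-4989971, whose transcription responds closely to calcium influx, had 8.25, 9.64 and 3.29 CPM on polyribosomes and 8.69, 11.4 and 5.75 CPM in total RNA. Replicate 3 was low in both groups. The log2 fold change was -0.34 (SE 0.34, 95% interval -1.07 to 0.40), the lowest of the members. Nr4a1, at chr15:101266846-101274792, had 26.8, 16.4 and 17.9 CPM on polyribosomes and 28.3, 17.4 and 19.2 CPM in total RNA. Its 3 pairs gave log2 ratios of -0.08, -0.08 and -0.10, the tightest agreement between pairs of all members, and the log2 fold change was -0.12 (95% interval -0.64 to 0.40). With the replicate block the interval of Nr4a1 narrowed to -0.42 to 0.25. With the GC and length offset added Nr4a1 was at -0.38 (95% interval -0.70 to -0.06, adjusted p = 0.0717, edgeR), the only member whose interval in that fit left out 0. The interval of Npas4 in that fit only just included 0, at -0.47 (95% interval -0.93 to 6.2e-05).

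Arc, at chr15:74669083-74672570, the one member whose mRNA is known for local translation in dendrites, had 532, 267 and 334 CPM on polyribosomes and 386, 252 and 299 CPM in total RNA. All 3 pairs were higher on polyribosomes, with log2 ratios of 0.46, 0.08 and 0.16, and replicate 1 was the highest in both groups. The groups overlapped, since polyribosome replicate 2 (267) lay below total RNA replicates 1 (386) and 3 (299). The means were 378 ± 138 and 312 ± 68.1 CPM. The log2 fold change was 0.27 (SE 0.24, 95% interval -0.24 to 0.78, adjusted p = 0.463, edgeR). With the replicate block it was 0.24 (adjusted p = 0.124), and with the GC and length offset added -0.08 (-0.30 to 0.15). Without polyribosome replicate 1 the unblocked value was -0.06. Counting pairs, Arc, Junb, Egr3 and Egr4 were higher on polyribosomes in all 3 pairs, 4 of 10 beside 30.2% of all genes, and Egr2, Npas4 and Nr4a1 were lower in all 3, 3 of 10 beside 30.6%. Both shares are near those of all genes.

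More members differed among replicate numbers than between the groups. In the blocked fit, a test for any difference among the 3 replicate numbers (chosen after the values were seen) called 4 of 10 members, Arc, Egr1, Npas4 and Nr4a1, beside 8.74% of all genes at the same threshold. Arc was higher in replicate 1 than in 2 and 3 by 0.81 and 0.53 on the log2 scale (adjusted p = 5.09e-05, edgeR). Nr4a1 had a like pattern, higher in replicate 1 than in 2 and 3 by 0.70 and 0.57 (adjusted p = 0.00505). Npas4 and Egr1 had another, with replicate 3 lowest. Npas4 was higher in replicate 1 than in 3 by 1.12 and differed from replicate 2 by -0.29 (adjusted p = 0.00506), and Egr1 by 0.62 and -0.05 (adjusted p = 0.00637). Egr3 ran opposite to Arc, with replicate 1 below 2 and 3 by -0.60 and -0.30, short of the threshold (adjusted p = 0.0362). The order of the 3 replicate numbers was identical in total RNA and on polyribosomes for 6 of 10 members (Arc, Fos, Egr1, Egr4, Npas4 and Nr4a1), beside 30.5% of all genes. All 4 calls were kept with other size factors, without the filter on low counts and with the GC and length offset. They depended on single libraries, since leaving one out leaves its replicate number with 1 library. No member was called without polyribosome replicate 1 or 2 or without total RNA replicate 2, beside 4.15%, 2.44% and 2.86% of all genes. Without total RNA replicate 1, Arc and Npas4 were called (4.62% of all genes), and without polyribosome replicate 3, Arc, Egr3 and Nr4a1 (6.76%). Without total RNA replicate 3 all 4 and Egr3 were called, beside 15.2% of all genes. The member counts thus moved with the share of all genes called.

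**Figure D3:**
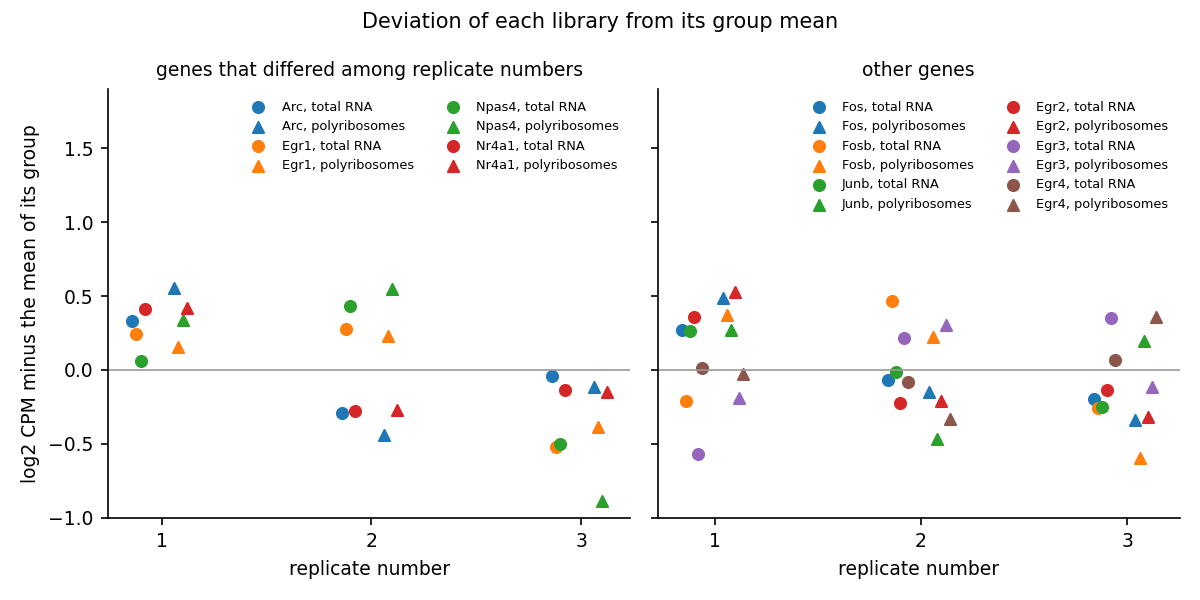
Deviation of each library from the mean of its group (log2 CPM) by replicate number, with circles for total RNA and triangles for polyribosomes, for the 4 members that differed among replicate numbers (left) and the other 6 (right). In the left panel, whose genes were picked by that difference, Arc and Nr4a1 are highest in replicate 1 and Npas4 and Egr1 lowest in replicate 3 in both groups.

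The mean profile of the 10 members over the 6 libraries (z-scored log2 CPM) was followed most closely by Fos, with a Pearson r of 0.908, then Arc with 0.767, Egr2 with 0.737 and Nr4a1 with 0.720. Egr4 (0.100) and Egr3 (-0.215) did not follow it. Each member is itself part of that mean, which raises its r. Of 8955 other genes with a mean of at least 10 CPM, the 5 with the closest profiles were Prex2 (0.997), Hba-a1 (0.985), Ak3 (0.969), Stk16 (0.967) and Fgf13 (0.965). These are correlations over 6 libraries that share depth and replicate number, picked as the highest of many, and are given as a description. Hba-a1, an alpha-globin gene of red blood cells with a near-identical copy, differed most among replicate numbers of the 5, higher in replicate 1 than in 2 and 3 by 1.24 and 1.65. Between the groups the 5 genes had log2 fold changes of 0.05 to 0.52, none called.

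Other activity-regulated transcription factors were spread around 0 as the members were. Of 20 genes 17 could be tested, with 6 above 0 and 11 below. Their median log2 fold change was -0.10 beside 0.00 over all genes. With edgeR 0 were called and 3 had an unadjusted p under 0.05, beside 376 and 3980 of 12255 genes. The lowest were Klf6, a Krüppel-like factor (-0.66, adjusted p = 0.0273), and Nr4a3, a relative of Nr4a1 (-0.53, adjusted p = 0.143). The highest were Cebpb, a leucine-zipper factor (0.89, adjusted p = 0.197), and Jund, an AP-1 partner of Fos (0.87, adjusted p = 0.0387). Jund had 87.4, 84.2 and 103 CPM on polyribosomes and 26.8, 59.3 and 71.0 CPM in total RNA. With the replicate block Jund was called higher (0.92, adjusted p = 6.3e-08) and Klf6 lower (-0.66, adjusted p = 0.000877), beside 11.8% and 13.2% of all genes. With the offset added both calls were lost, with Jund at 0.22 (adjusted p = 0.207) and Klf6 at -0.32 (adjusted p = 0.137).

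Among effector genes of the activity response, such as secreted factors, phosphatases and scaffolds, 26 of 28 could be tested. Of these 15 were above 0 and 11 below, with a median of 0.12. With edgeR 0 were called and 5 had an unadjusted p under 0.05, beside 376 and 3980 of 12255 genes. Vgf, a secreted neuropeptide precursor, had 203, 302 and 572 CPM on polyribosomes and 67.3, 170 and 259 CPM in total RNA, with a log2 fold change of 1.15 (SE 0.40, adjusted p = 0.0621). Replicate 3 was the highest and replicate 1 the lowest in both groups, whereas replicate 1 was the highest for Arc. Cyr61, a matricellular protein, had 0.86 (adjusted p = 0.0414), and at the other end Dusp5, a phosphatase of ERK, had -0.60 (adjusted p = 0.438). Homer1, a scaffold of metabotropic glutamate receptors, had 95.4, 112 and 66.7 CPM on polyribosomes and 185, 200 and 133 CPM in total RNA, without overlap (-0.93, SE 0.21, adjusted p = 0.0127). The counts are per gene and do not separate the short activity-induced form of Homer1 from the long ones. With the replicate block 3 effectors were called higher, Vgf (1.18, adjusted p = 5.34e-13), Cyr61 (0.81, adjusted p = 7.26e-05) and Nptx2 (0.81, adjusted p = 2.08e-07). The 1 called lower was Homer1 (-0.92, adjusted p = 1.38e-09). Over all genes 11.8% were called higher and 13.2% lower in that fit. Nptx2, a secreted pentraxin that clusters AMPA receptors, was named after its values were seen. With the offset added these 4 were still called, at 0.69, 0.63, 0.47 and -0.38 in the same order.

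Most regulators upstream of the immediate early genes had log2 fold changes below 0. Of 24 tested, 6 were above 0 and 18 below, with a median log2 fold change of -0.23 beside 0.00 over all genes. In the unblocked fit 1 was called lower, beside 2.36% of all genes. This was Mef2c, an activity-regulated transcription factor, with 177, 204 and 161 CPM on polyribosomes and 328, 331 and 278 CPM in total RNA (-0.79, SE 0.17, adjusted p = 0.00986, edgeR). The call lay at the threshold. It was lost with 5 of the 6 libraries left out in turn (all but total RNA replicate 3) and with RLE size factors (adjusted p = 0.0102), and the value was -0.29 with the block and the offset. The kinases Rps6ka3 (-0.91, adjusted p = 0.0144) and Camk4 (-0.86, adjusted p = 0.0337) had the lowest fold changes, and Map2k2 (0.65, adjusted p = 0.0256) and Srf (0.32, adjusted p = 0.262) the highest. With the replicate block 8 regulators were called lower, these kinases and Mef2c among them, and Map2k2 higher. The shares of all genes in that fit were 13.2% lower and 11.8% higher. With the offset added Camk4 was still called (-0.84), while Rps6ka3 (-0.37, adjusted p = 0.0354) and Map2k2 (0.22, adjusted p = 0.249) were not.

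**Figure D4:**
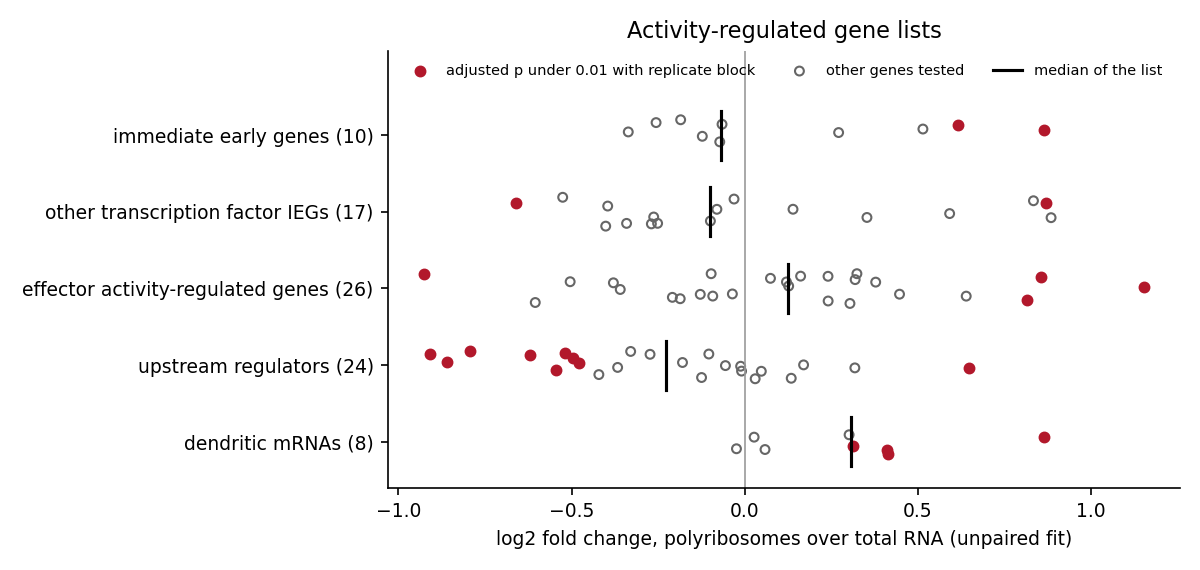
Log2 fold change (polyribosomes over total RNA, unblocked edgeR fit) of every tested gene of 5 lists, with the number tested in parentheses, the median of each list as a black line and genes with an adjusted p under 0.01 under the replicate block filled in red. The members lie between -0.34 and 0.86 around a median of -0.07. Of the filled upstream regulators 8 lie below 0, beside 13.2% of all genes called lower in that fit.

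As a comparison for Arc, 8 mRNAs known from dendrites were followed. All 8 could be tested, 7 were above 0 and 1 below, with a median of 0.31. With edgeR 0 were called and 2 had an unadjusted p under 0.05, beside 376 and 3980 of 12255 genes. Nrgn, encoding the calmodulin-binding protein neurogranin, had 396, 380 and 545 CPM on polyribosomes and 139, 268 and 325 CPM in total RNA (0.87, adjusted p = 0.0374). Dlg4, encoding the scaffold PSD-95, had 0.41 (adjusted p = 0.124). Camk2a (0.03) and Ddn (-0.02) lay at 0. Arc, at 0.27, was within the range of these mRNAs. With the block 4 of the 8 were called higher, beside 11.8% of all genes, while Arc was not. These were Nrgn (0.92, adjusted p = 8.62e-09), Dlg4 (0.42, adjusted p = 0.00553) and, named after their values were seen, the scaffolds Shank1 (0.42, adjusted p = 0.00892) and Shank3 (0.46, adjusted p = 0.00273). With the offset added Nrgn (0.46) and Dlg4 (0.45) were still called, and Shank1 (0.21, adjusted p = 0.232) and Shank3 (0.22, adjusted p = 0.158) were not.

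Markers of cell types were read beside these results. The summed level of 8 neuronal and synaptic markers was 4073 to 5317 CPM on polyribosomes and 3467 to 3843 CPM in total RNA, with 4 genes above 0 and 4 below. Astrocyte markers summed to 44709 to 49069 CPM on polyribosomes and 34391 to 40279 CPM in total RNA, and all 9 of 9 were above 0 (median log2 fold change 0.54). All 6 of 6 oligodendrocyte markers (median 0.38, 10261 to 14164 CPM against 7563 to 10680) and all 6 of 6 microglia markers (median 0.45, 709 to 840 CPM against 469 to 638) were also above 0, as were 4 of 6 endothelial markers (median 0.23, 264 to 488 CPM against 287 to 305). No marker was at 0 in any library, and none of these lists had a gene called without the block. With the block 2 neuronal, 6 astrocyte, 3 oligodendrocyte, 3 microglia and 1 endothelial markers were called higher and 2 neuronal ones lower. Over all genes that fit called 11.8% higher and 13.2% lower. Several immediate early genes are also transcribed in glia and endothelium, and the part of other cells in the members' values was not tested.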

How the data were processed

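Ribosomal RNA was depleted and reads were mapped with STAR (version 2.5.2b per the labels) to GRCm38. The authors deposited whole-number read counts per gene, made on Gencode vM6 (basic set). Use of the strand in counting is not given in the sources used here. The same table holds the authors' DESeq2 comparison (mean, log2 fold change, its error, test score and p-values), which was not used. From the counts, edgeR 4.0.16 (R 4.3.3) was run on the 12255 genes passing filterByExpr, with TMM factors, a model of group alone, its quasi-likelihood test and a threshold of 0.01 on the Benjamini-Hochberg adjusted p. CPM are TMM-scaled, and log2 CPM used a prior count of 2. By the study's methods, total and stimulated material were aliquots of a preparation, but which libraries shared one is not stated. Same-numbered libraries share a label prefix and across genes deviated together from their groups (r of 0.37, 0.26 and 0.38). Equal numbers were therefore taken as pairs, an inference that the main fit does not use. The unblocked fit was also run on simulated counts that held no shared differences among replicate numbers. The blocked fit was not run on them.

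The members and lists were chosen with earlier results of these data known. The named genes were all members, and from each other list the genes past the threshold plus the 2 highest and 2 lowest fold changes, except marker lists, given as counts, and the 5 genes nearest the mean member profile. Alternatives were DESeq2 1.42.0, other size factors, no filter, the replicate block, a GC and length offset from vM21 exons clipped to the deposited bounds (12212 genes), and leaving out each library. Levels per kilobase used the same exons.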

Additional observations from a re-analysis of the deposited data

How the results depend on the processing

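No member was called lower under any alternative run, and the replicate block was the only planned one that called any, 2 (Egr3 and Egr4). In the blocked fit the number called higher was 1 with library totals, 0 with the GC and length offset (1 with the full gene models), 0 with DESeq2, and 0 to 1 with a pair left out. Leaving out single libraries gave 0 to 5 members that differed among replicate numbers, beside 2.44% to 15.2% of all genes. The member median then ran from -0.26 (without polyribosome replicate 1) to 0.14 (without total RNA replicate 1). Over all genes, the counts called higher were 321 with DESeq2, 42 with library totals, 476 without the filter, 1441 with the block, 1090 with the block and offset, 20 with the offset alone and 0 to 61 with a library left out. Those called lower were 566 without the filter, 1622 with the block, 829 with the block and offset, 81 with the offset alone and 22 to 208 with a library left out. With library totals the median of all genes moved to -0.11.

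Some log2 fold changes changed sign, among them Junb, Hba-a1 and Dusp5 (0.52, 0.52 and -0.60 as reported), and the cause was not tested. With the block Fos was 0.0064 and Ddn 0.058 (0.0057 without the filter). With the block and offset Arc was -0.075, Junb -0.087, Srf -0.20 and Hba-a1 -0.091, and with the offset alone Arc was -0.052, Junb -0.098 and Srf -0.21. With library totals Ak3 was -0.023, Camk2a -0.078 and Fgf13 -0.050. With a library left out Arc ran from -0.059 to 0.47, Fos from -0.39 to 0.11, Fosb from -0.42 to 0.14, Egr1 from -0.23 to 0.085, Egr2 from -0.65 to 0.054 and Nr4a1 from -0.38 to 0.17. The same ranges were -1.31 to 0.13 for Dusp5, -0.19 to 0.23 for Camk2a, -0.29 to 0.38 for Ddn, -0.039 to 0.94 for Shank1, -0.052 to 0.28 for Prex2, -0.38 to 0.88 for Hba-a1, -0.11 to 0.20 for Ak3, -0.19 to 0.24 for Stk16 and -0.15 to 0.20 for Fgf13. The fewest reads lay behind Fosb, Egr2, Npas4, Fos and Egr4, with 3 to 7 counts each in total RNA replicate 3. The replicate block changed no other member's call.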
